A study of Mus musculus with 12 samples.

Results

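Plasma cells are the antibody-secreting end stage of B cells, and long-lived plasma cells lodge in the bone marrow. Their identity rests on the transcription factors IRF4 and BLIMP1 (the product of Prdm1), which shut down the B cell programme, and on XBP1, which expands the endoplasmic reticulum so that immunoglobulin can be folded and exported. The 8 genes described here, taken by gene symbol from 24444 measured genes, cover these roles: the regulators Prdm1, Irf4 and Xbp1, the surface proteins Sdc1 and Tnfrsf17, and the endoplasmic reticulum proteins Mzb1, Derl3 and Fkbp11. In bone marrow of the aged Hopx knockout, 6 of the 8 fell by 3.15-fold to 6.85-fold, while Xbp1 and Fkbp11 did not pass the test. Of all 12771 genes tested there, 15.8% passed and were lower.

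RNA sequencing was done on bone marrow cells of C57BL/6 mice in 4 groups of 3 libraries. The groups aged_WT (Hopx-wildtype) and aged_KO (Hopx-knockout) are labelled old, with an age of 18 weeks. The groups MN1_WT (Hopx-wildtype) and MN1_KO (Hopx-knockout) carried MN1 overexpression and are labelled 16 weeks. Hopx encodes a small homeodomain protein, and MN1 is a transcriptional coregulator. The labels name the tissue as whole bone marrow with no sort or gate. They give no sex, no batch, no way in which MN1 was introduced, and no statement that libraries came from separate animals, so p-values measure the spread between these libraries. The MN1 libraries stand in a table of their own, so MN1 status, labelled age and table cannot be told apart. Libraries are named by the replicate number in their titles, in the order aged_WT 1, 6 and 7, aged_KO 3, 9 and 10, MN1_WT 2, 3 and 4, and MN1_KO 5, 7 and 8.

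The libraries held 16544407 to 28409046 counts each. Hopx stood at 14.2 to 33.6 CPM (counts scaled to the library total) in aged_WT and at 0 to 0.121 CPM in aged_KO. It stood at 14.1 to 27.9 CPM in MN1_WT and still at 2.92 to 3.51 CPM in MN1_KO. The source of these Hopx counts was not tested, and if MN1_KO holds some cells with intact Hopx, the MN1 fold changes do not compare a pure knockout. Mn1 stood at 22.1 to 47.3 CPM in MN1_KO and at 36.4 CPM in MN1_WT replicate 3. The libraries labelled MN1_WT replicates 2 and 4 had Mn1 at only 0.395 and 0.16 CPM, no higher than the aged groups, which spanned 0.0704 to 1.18 CPM. These 2 libraries go against their label, and the comparisons, group orders and correlations that use them are also given without them. Transcripts of a transgene may escape a count of the mouse gene, which was not tested. Jchain, the chain that joins secreted IgM and IgA, stood at 1010 ± 287 CPM (SD, n = 3) in aged_WT. Jchain is not made by plasma cells alone, and B cell and plasmacytoid dendritic cell markers were abundant in the same libraries. By symbol, no constant or variable gene of the immunoglobulin heavy and light chain loci was among the measured genes, so these could not be analysed. The 8 genes are therefore named for their known role and not for a cell type identified in these libraries.

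**Figure D1:**
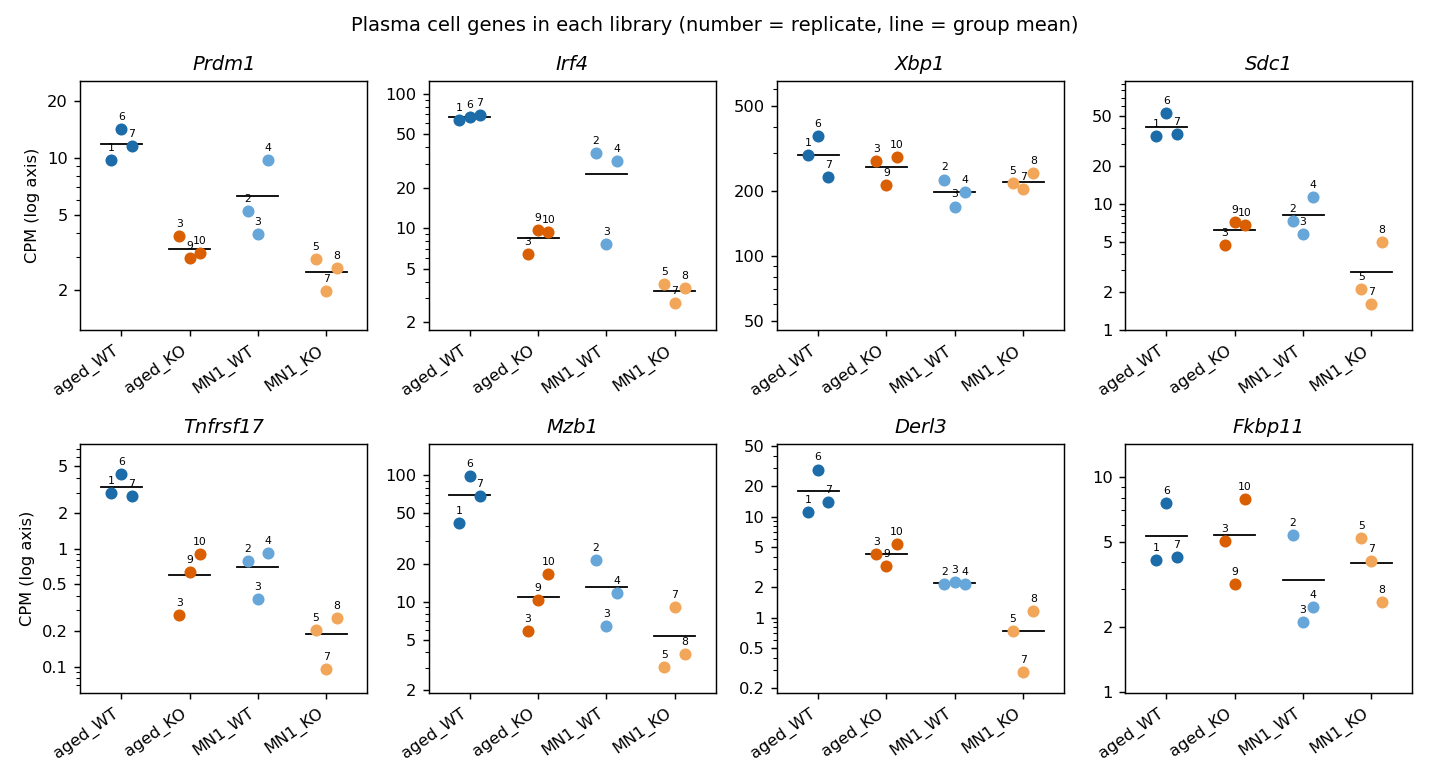
Each panel plots 1 of the 8 plasma cell genes in CPM on a log axis, with 1 point per library in the 4 groups, its replicate number above it and a line at the group mean. For Irf4, the aged_WT points lie at 63.5 to 68.9 CPM and the aged_KO points at 6.37 to 9.72 CPM, whereas the groups overlap for Xbp1 and Fkbp11.

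The regulators of the plasma cell state did not move together in the aged comparison. Irf4, needed for plasma cells to form and to survive, read 63.5, 67.5 and 68.9 CPM in aged_WT and 6.37, 9.72 and 9.37 CPM in aged_KO. All aged_WT libraries were several times above all aged_KO libraries, and the aged_WT values were close together. Irf4 fell by 2.78 ± 0.18 (SE) on the log2 scale, 6.85-fold, at an adjusted p of 0.000121 (edgeR's quasi-likelihood test with Benjamini-Hochberg adjustment over all genes, the test behind every adjusted p below unless another is named). Prdm1, whose product represses the B cell genes, read 9.74, 14.1 and 11.5 CPM in aged_WT and 3.84, 2.96 and 3.14 CPM in aged_KO, with no overlap. It fell by 1.66 ± 0.19 on the log2 scale (3.15-fold, adjusted p = 0.000748). Xbp1, the transcription factor of the unfolded protein response, read 294, 362 and 234 CPM in aged_WT and 276, 215 and 289 CPM in aged_KO. Its groups overlapped, and its log2 fold change was -0.02 ± 0.17 (adjusted p = 0.945). Counts per gene do not separate the spliced, active form of the Xbp1 transcript from the unspliced form.

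The RNAs of both surface proteins fell in the aged knockout. Sdc1 encodes CD138, the proteoglycan by which plasma cells are commonly sorted. It read 34.8, 52.6 and 35.9 CPM in aged_WT and 4.72, 7.22 and 6.77 CPM in aged_KO. The groups lay far apart, with a fall of 2.52 ± 0.23 on the log2 scale (5.74-fold, adjusted p = 0.000441). Tnfrsf17 encodes BCMA, the receptor through which APRIL and BAFF keep marrow plasma cells alive. It was the lowest of the 8 in counts, with 55, 93 and 55 counts in the aged_WT libraries and 5, 18 and 15 in the aged_KO libraries. These are 2.96, 4.32 and 2.79 CPM against 0.274, 0.634 and 0.907 CPM, with no overlap. Tnfrsf17 fell by 2.28 ± 0.40 on the log2 scale (4.86-fold, adjusted p = 0.00386).

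Of the 3 genes for endoplasmic reticulum proteins, Mzb1 and Derl3 fell at the RNA level and Fkbp11 did not pass. Mzb1, a chaperone partner that helps assemble and secrete IgM, read 42.1, 99.0 and 68.1 CPM in aged_WT and 5.82, 10.3 and 16.7 CPM in aged_KO. It fell by 2.49 ± 0.48 on the log2 scale (5.61-fold, adjusted p = 0.0138), with the wild-type libraries spread widely and still all above the knockout. Mzb1 lies on chromosome 18 from 35647267 to 35649367 on the minus strand (GRCm38, GENCODE M21). An entry spelled SPATA24 overlaps it there on the same strand. The expected counts of Mzb1 were whole numbers in every library, so they show no fractional split of reads with another gene. How any shared reads were assigned was not tested. The gene spelled Spata24 in the data read 5.12 to 7.20 CPM in aged_WT and 2.15 to 2.48 CPM in aged_KO. Derl3, which belongs to the complex that carries misfolded proteins out of the endoplasmic reticulum, read 11.1, 29.2 and 13.9 CPM in aged_WT and 4.23, 3.27 and 5.32 CPM in aged_KO. It fell by 1.92 ± 0.38 on the log2 scale (3.78-fold, adjusted p = 0.00903). Replicate 6 was the highest aged_WT library for Derl3 and for every other member except Irf4. Fkbp11, a proline isomerase of the secretory pathway, read 4.09, 7.53 and 4.26 CPM in aged_WT and 5.05, 3.17 and 7.92 CPM in aged_KO. Its groups overlapped, and its log2 fold change was 0.17 ± 0.35 (adjusted p = 0.744).

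Thus 6 of the 8 passed and were lower, in a comparison in which 15.8% of 12771 genes tested passed and were lower (31.4% in either direction). The members were chosen with earlier results of these data known, so these shares describe the comparison and do not test the list. The same 6 had no overlap between groups, a pattern that 38.4% of all tested genes showed in that direction on CPM without TMM scaling. The median log2 fold change was -2.10 over the 8 genes and -0.02 over all genes. Each of the 6 passed in all 12 alternative analyses, with adjusted p-values up to 0.0494 for Mzb1 and 0.0431 for Derl3.

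**Figure D2:**
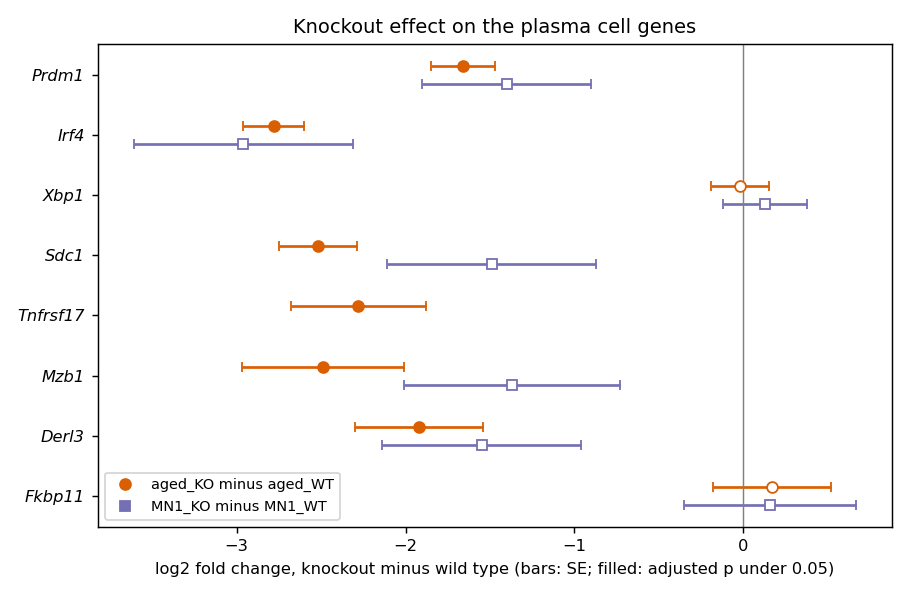
The log2 fold change of knockout against wild type is plotted for each plasma cell gene, with bars of 1 SE, for the aged libraries (circles) and the MN1 libraries (squares). Filled symbols had an adjusted p under 0.05 and were 6 of the aged values and none of the MN1 values, and Tnfrsf17 has no MN1 point because it was below the count filter there.

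The level of the 8 genes relative to each other was read from the deposited TPM (transcript abundance scaled for gene length and depth). In aged_WT, Xbp1 was the most abundant at 189 ± 39 TPM (SD, n = 3) and Mzb1 followed at 117 ± 47 TPM. Irf4, Derl3 and Sdc1 were close to each other at 20 ± 1.1, 19.8 ± 11 and 19.1 ± 4.5 TPM, and Fkbp11 had 11.1 ± 4.0 TPM. Tnfrsf17 at 6.32 ± 1.6 TPM and Prdm1 at 3.18 ± 0.59 TPM were the lowest. In aged_KO, Xbp1 was at 175 ± 30 TPM and Mzb1 at 18.9 ± 8.2 TPM, and Fkbp11, at 11.8 ± 4.8 TPM, stood above Derl3, Sdc1 and Irf4. Xbp1 made up 53.2 to 63.6% of the counts of the 8 genes in the aged_WT libraries and 85.2 to 90.1% in the aged_KO libraries. The other 7 genes summed to 168, 274 and 205 CPM in aged_WT and to 30.3, 37.3 and 50.1 CPM in aged_KO. In bulk marrow, fewer plasma cells and less of these RNAs per cell cannot be told apart.

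In the MN1 libraries the same 6 genes had lower group means in the knockout, but no member passed the test. Irf4 read 36.3, 7.60 and 31.6 CPM in MN1_WT and 3.87, 2.79 and 3.61 CPM in MN1_KO, with a log2 fold change of -2.96 ± 0.65 (adjusted p = 0.226). Replicate 3, the MN1_WT library with Mn1 signal, was the lowest of its group and still above every MN1_KO library. Prdm1 read 5.22, 3.94 and 9.77 CPM against 2.92, 1.97 and 2.61 CPM (log2 fold change -1.40 ± 0.50, adjusted p = 0.408). Sdc1 read 7.31, 5.81 and 11.3 CPM against 2.10, 1.59 and 4.96 CPM (-1.49 ± 0.62, adjusted p = 0.499). Neither overlapped between groups. Derl3 read 2.13, 2.24 and 2.16 CPM against 0.740, 0.288 and 1.17 CPM (-1.55 ± 0.59, adjusted p = 0.451), again without overlap. Mzb1 read 21.3, 6.44 and 11.8 CPM against 3.04, 9.14 and 3.87 CPM, and its groups overlapped (-1.37 ± 0.64, adjusted p = 0.551). Tnfrsf17 had 20, 9 and 23 counts in MN1_WT and 5, 2 and 6 in MN1_KO, with no overlap, and was too low to be tested. Xbp1 read 227, 170 and 198 CPM against 218, 205 and 243 CPM (0.13 ± 0.25, adjusted p = 0.897). Fkbp11 read 5.38, 2.12 and 2.48 CPM against 5.22, 4.04 and 2.61 CPM (0.16 ± 0.51, adjusted p = 0.941). Both overlapped between groups.

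Of the 7 members tested in the MN1 libraries, 0 passed, as did 0% of the 13525 genes tested with edgeR. At an unadjusted p under 0.05 there were 4 members (Irf4, Prdm1, Derl3 and Sdc1) and 10% of all genes. The same 4 were lower without overlap, against 8.32% of all tested genes in that direction. DESeq2 called 565 genes and 1 member, Irf4 (-2.98, DESeq2 adjusted p = 0.000238), and limma called 6 genes and no member. Irf4 also passed without MN1_WT replicate 3 (-3.42, adjusted p = 0.0127) and in the fit of all 12 libraries (-2.97, adjusted p = 0.0132). Without MN1_WT replicates 2 and 4, which leaves 1 wild-type library assumed to vary like the knockout libraries, the log2 fold changes were -0.99 for Irf4, -0.50 for Prdm1, -0.79 for Sdc1, -1.40 for Derl3, -0.11 for Mzb1, 0.56 for Xbp1 and 1.03 for Fkbp11, and none passed. Markers of other cells moved in MN1_WT as well: the 11 B cell markers summed to 389, 222 and 353 CPM and the 8 plasmacytoid dendritic cell markers to 135, 464 and 103 CPM in replicates 2, 3 and 4. The sum of 464 CPM was mostly Ccr9, which spanned 2.88 to 304 CPM in MN1_WT, so it does not stand for the whole list. Siglech, of the same list, spanned 1.41 to 10.9 CPM there. The part of these other cells in the Irf4 values was not tested.

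The knockout effect in the MN1 libraries minus that in the aged libraries was tested directly and passed for 0 of 8 members, against 3.32% of 13937 genes, with edgeR. No member had an unadjusted p under 0.05, and DESeq2 and limma also called 0. The widest differences were 1.11 ± 0.81 for Mzb1 (adjusted p = 0.438) and 1.03 ± 0.65 for Sdc1 (adjusted p = 0.372) on the log2 scale, and the narrowest was -0.02 ± 0.65 for Fkbp11. With SEs of this size, differences of 1 on the log2 scale were not detectable for these genes. Without MN1_WT replicates 2 and 4 the difference was 2.29 for Mzb1 and 1.72 for Irf4, and 0 members passed.

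Levels in the MN1 groups were below those in the aged groups for several members. Between the wild-type groups, 4 of 8 passed and were lower in MN1_WT, where 2.58% of genes were: Derl3 by 9.20-fold (log2 fold change -3.20 ± 0.50, adjusted p = 0.0110), Mzb1 by 5.74-fold (-2.52 ± 0.59, adjusted p = 0.0440), Sdc1 by 5.53-fold (-2.47 ± 0.47, adjusted p = 0.0206) and Tnfrsf17 by 5.23-fold (-2.39 ± 0.54, adjusted p = 0.0386). Irf4 stood at 66.6 ± 2.8 CPM in aged_WT and 25.2 ± 15.4 CPM in MN1_WT (-1.51 ± 0.47, adjusted p = 0.0936). The count of 4 fell to 1 when aged_WT replicate 1, 6 or 7 or MN1_WT replicate 2 was left out, and it was 7 without MN1_WT replicates 2 and 4. Between the knockout groups, 4 of 8 were lower in MN1_KO, where 16.8% of genes were: Derl3 (-2.86 ± 0.51, adjusted p = 0.00366), Irf4 (-1.69 ± 0.50, adjusted p = 0.0234), Tnfrsf17 (-2.01 ± 0.61, adjusted p = 0.0261) and Sdc1 (-1.44 ± 0.47, adjusted p = 0.0351). That count fell to 1 without aged_KO replicate 9 or 10 or MN1_KO replicate 5, and to 2 without MN1_KO replicate 7. These comparisons share their groups with the knockout comparisons, and each spans the 2 tables.

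In order of mean CPM, Irf4, Prdm1, Sdc1, Tnfrsf17 and Mzb1 shared 1 order: aged_WT, MN1_WT, aged_KO and MN1_KO. MN1_WT and aged_KO overlapped for Irf4, Sdc1, Tnfrsf17 and Mzb1, aged_WT and MN1_WT for Prdm1, and aged_KO and MN1_KO for Sdc1 and Mzb1. Derl3 followed another order, with aged_KO at 4.27 ± 1.0 CPM above MN1_WT at 2.18 ± 0.056 CPM and no neighbours overlapping. All neighbouring groups overlapped for Xbp1 and Fkbp11. Without MN1_WT replicates 2 and 4, the lone MN1_WT library fell below the aged_KO mean for Irf4 (7.60 against 8.48 CPM), Sdc1 (5.81 against 6.24 CPM), Tnfrsf17 (0.374 against 0.605 CPM) and Mzb1 (6.44 against 11 CPM). The order of these 2 groups therefore turned for 4 of the 5 genes, and Prdm1 kept it (3.94 against 3.31 CPM).

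**Figure D3:**
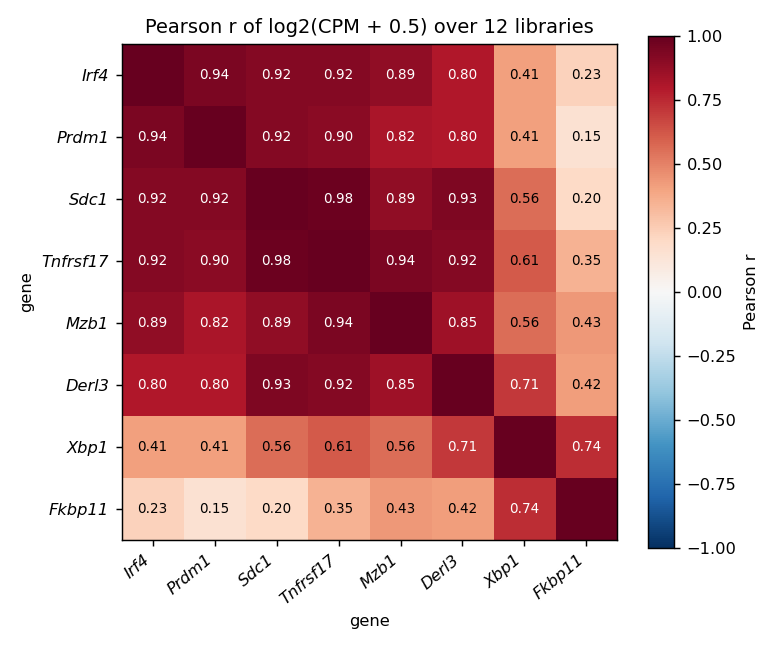
Pearson's r of log2(CPM + 0.5) over the 12 libraries is shown for every pair of the 8 plasma cell genes, from -1 (blue) to 1 (red). The block of Irf4, Prdm1, Sdc1, Tnfrsf17, Mzb1 and Derl3 lies between 0.80 and 0.98, and Xbp1 and Fkbp11 stand outside it with 0.74 between them.

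Across the 12 libraries, the 15 pairs among the 6 genes that fell had a Pearson r of 0.80 to 0.98. These values describe points that share groups and libraries: with group means removed, the same pairs ranged from 0.03 to 0.73. Fkbp11 had an r of 0.15 to 0.43 with the 6, and Xbp1 of 0.41 to 0.71. Xbp1 and Fkbp11 had an r of 0.74 with each other, and of 0.66 with group means removed. Among 11809 genes, those most like Irf4 over the 12 libraries were Pou2af1 (0.992), Fcrla (0.985) and Blnk (0.984). Those most like Sdc1 were Tnfrsf17 (0.975), Crip1 (0.962) and Ly6a (0.961), and those most like Derl3 were Cacna1h (0.975), Creld2 (0.964) and Dtx2 (0.955). For Prdm1 they were Cd74, Wfs1 and Ms4a1 (0.945 to 0.952), and for Mzb1 Myl9, Tnfrsf17 and Bend5 (0.927 to 0.941). Xbp1 was most like Ptrhd1 (0.907), Ssr4 (0.889) and Manf (0.875), and Fkbp11 most like Ctsg (0.838), a neutrophil granule protease. Over the 10 libraries without MN1_WT replicates 2 and 4, r was 0.88 to 0.98 among the 6, 0.56 to 0.70 for Xbp1 with them, 0.26 to 0.44 for Fkbp11 with them and 0.75 between Xbp1 and Fkbp11. The lists of most similar genes were less steady: of the 3 nearest genes of each of the 8 members, 10 in all were again among the nearest 3, and none of the 3 of Prdm1.

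The wider plasma cell programme also fell in the aged knockout, with 8 of 10 further plasma cell genes lower (median log2 fold change -1.06), where 15.8% of all genes tested were. In the fit of all 12 libraries, 4 of the 10 were past the threshold. Pou2af1, the coactivator of octamer-binding factors in B lineage cells, read 119, 133 and 162 CPM in aged_WT and 9.55, 16.2 and 16.9 CPM in aged_KO. It fell by 3.08 ± 0.24 on the log2 scale (adjusted p = 0.000389). Jchain read 772, 940 and 1330 CPM in aged_WT and 135, 333 and 255 CPM in aged_KO, without overlap, and fell by 1.87 ± 0.38 (adjusted p = 0.0129). Slamf7, a surface receptor of plasma cells and natural killer cells, fell by 2.19 ± 0.16 (adjusted p = 0.000148), from 31.7 ± 4.8 to 6.12 ± 0.80 CPM. Eaf2, Txndc5, Bhlha15, Ell2 and Tent5c were the other 5 that fell. Tnfrsf13b, which encodes the BCMA relative TACI, had a log2 fold change of -0.25 (adjusted p = 0.335) and Ccr10 of 0.21 (adjusted p = 0.775).

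Genes of the secretory machinery as a whole did not follow under TMM scaling. Of 30 genes for translocation into and folding in the endoplasmic reticulum, 2 were lower and 1 was higher, with a median of 0.03. Of all genes tested, 31.4% passed in either direction. On CPM without TMM scaling, 9 of the 30 were lower without overlap, against 38.4% of all genes tested. The number past the threshold was 7 without aged_KO replicate 10 and 1 without aged_KO replicate 3 or in the fit of all 12 libraries. Herpud1 fell by 0.57 ± 0.10 on the log2 scale (adjusted p = 0.00416) and Creld2 by 0.83 ± 0.26 (adjusted p = 0.0475), while Pdia3 rose by 0.38 ± 0.12 (adjusted p = 0.0319). Creld2 did not pass in 8 of the 12 alternatives. Without TMM scaling, which moved the median of all genes to -0.20, 8 of the 30 passed and all were lower, so the direction of this list depends on scaling. The chaperone Hspa5 had 0.18 (adjusted p = 0.315). Among 5 sensors and effectors of the unfolded protein response, Ern1, the kinase and nuclease that splices Xbp1 RNA, rose by 0.54 ± 0.17 (adjusted p = 0.0388), a call lost in 6 of the 12 alternatives. Of 13 family relatives of the 8, 6 passed and were lower and 7 did not pass, where 15.8% of all genes tested passed and were lower. The derlins Derl1 and Derl2 had log2 fold changes of -0.04 and -0.03, whereas the syndecans Sdc2, Sdc3 and Sdc4 fell by 1.31, 1.66 and 3.17. The Fkbp relatives differed among themselves. Fkbp14 had a mean of 0.851 CPM in aged_WT and 0.0919 CPM in aged_KO, and Fkbp9 had 6.99 CPM in both.

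Most of the listed regulators of B cell fate were also lower in the aged knockout. Of 8 regulators of B cell fate, 7 fell, where 15.8% of all genes tested did. Among the 7 were Ebf1 (log2 fold change -5.62, adjusted p = 0.000354), Pax5 (-5.50, adjusted p = 0.000876) and Bach2 (-3.98, adjusted p = 0.000492), the last of which represses Prdm1. Bcl6, which holds germinal centre B cells from becoming plasma cells and is also expressed in other blood cells, rose by 0.69 (adjusted p = 0.0101). Of 13 genes of the plasma cell survival niche, 3 fell (Tnfrsf13c, Cd28 and Vcam1) and Mcl1 rose, a share near the 31.4% of all genes that passed in this comparison. The count of 4 ranged from 3 to 6 when 1 library was left out and was 2 in the fit of all 12 libraries. Cxcl12, the chemokine that holds plasma cells in the marrow, had -1.48 (adjusted p = 0.0847), its receptor Cxcr4 -0.36 (adjusted p = 0.0997), and the BCMA ligands Tnfsf13 0.29 (adjusted p = 0.151) and Tnfsf13b -0.31 (adjusted p = 0.149).

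Markers of other cell types that express some of these genes moved with them. Of all genes tested in this comparison, 15.8% passed and were lower, and 31.4% passed in either direction. The 11 B cell markers summed to 589 to 1330 CPM in aged_WT and 199 to 208 CPM in aged_KO, and 10 of the 11 fell (median -4.15). All 8 plasmacytoid dendritic cell markers fell (median -2.18), from a sum of 388 to 476 CPM to one of 59.8 to 105 CPM. Of the T and NK cell markers 10 of 11 fell (221 to 313 against 136 to 206 CPM), and of the eosinophil markers 6 of 8 (2550 to 4690 against 614 to 1380 CPM). The T and NK sums rest largely on Nkg7, the marker that did not fall (82.2 to 96.2 CPM in aged_WT, 76.3 to 170 CPM in aged_KO). They therefore understate the fall of the rest of that list. Neutrophil markers went the other way from these lists, with 7 of 12 higher. Erythroid markers fell in 5 of 8 cases, macrophage markers in 4 of 8, basophil and mast cell markers in 3 of 6 and stroma markers in 2 of 7 tested, with none higher. With 1 library left out, these counts past the threshold were 2 to 8, 4 to 5, 0 to 6 and 2 to 4. The eosinophil count was 1 without aged_KO replicate 10, 2 without aged_WT replicate 6 and 3 without aged_KO replicate 3, and the neutrophil count was 2 without aged_WT replicate 7. In the fit of all 12 libraries both were 0, and 5 of the 8 plasmacytoid dendritic cell markers passed. No marker of the B cell, plasmacytoid dendritic cell, T and NK cell, eosinophil or neutrophil lists was at 0 in any aged library. Irf4, Prdm1 and Xbp1 are also expressed outside plasma cells, and the part of these other cells in the 8 genes' values was not tested.

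**Figure D4:**
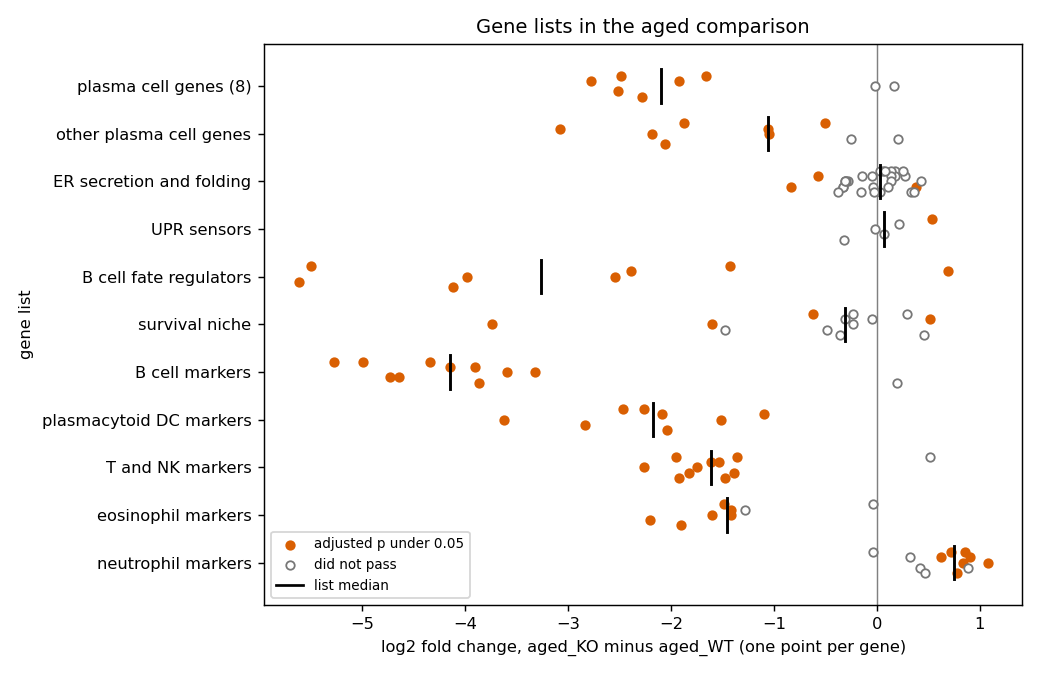
Each point is 1 gene, placed by its log2 fold change in aged_KO against aged_WT, in rows by gene list, with filled points for an adjusted p under 0.05 and a black line at the list median. Tent5c, named Fam46c in the data, is not drawn and is left out of the line of its row. The plasma cell genes centre on -2.10 and the B cell markers on -4.15, while the endoplasmic reticulum genes centre on 0.03.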

How the data were processed

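The deposited tables hold, for each gene symbol, the authors' expected counts, TPM and FPKM, made from stranded mRNA libraries per the labels' protocols. The submitters' processing notes name RSEM 1.2.28, Bowtie2 2.3.4.3 and mm10, and the gene annotation is not given in the sources used here. The deposited expected counts were rounded to whole numbers and tested. The authors' TPM served only to compare genes, and their FPKM was not used. CPM is a library's expected count over its total, without TMM scaling. Low genes were removed with filterByExpr and libraries normalised by TMM. The test was the robust quasi-likelihood F test of edgeR 4.0.16 (R 4.3.3), at a Benjamini-Hochberg adjusted p under 0.05. The knockout comparisons used the 6 libraries of 1 table each, and the other comparisons 1 fit of all 12 libraries with 4 group means. SEs were derived from the fold change and its F statistic. The procedure was also run on simulated counts with the same spread between libraries for every gene. That setting does not copy the uneven MN1_WT libraries, so it cannot show how the test performs on them.

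The members and gene lists were chosen with earlier results of these data known. Named genes were the members, up to 3 genes per list by adjusted p, the family relatives, a few fixed genes (Jchain, Pou2af1, Pax5, Bcl6, Bach2, Cxcl12, Cxcr4, Tnfsf13, Tnfsf13b) and the 3 genes most like each member. Creld2, Hspa5, Spata24, and a few others given to complete a count, were named after their values were seen. Alternatives were DESeq2 1.42.0, limma 3.58.1 on log2 CPM, no TMM scaling, no filter, at least 1 CPM in 3 libraries, the fit of all 12 libraries, and leaving out libraries. The group orders and correlations without MN1_WT replicates 2 and 4 were added after seeing the data. Library totals set the counting precision, and no 2 libraries held identical values.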

Additional observations from a re-analysis of the deposited data

Results flagged for a closer look

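A test of the difference between the knockout effect in the MN1 libraries and that in the aged libraries passed for 5 of the 163 genes tested from the gene lists and the label check (edgeR, Benjamini-Hochberg adjustment). That is 3.07%, near the 3.32% of all 13937 genes that passed this test, and none of the 8 plasma cell genes was among them. Eaf2, an elongation factor partner expressed in plasma cells, differed by 2.16 ± 0.47 on the log2 scale (adjusted p = 0.0383), with knockout effects of -2.06 in the aged and 0.13 in the MN1 libraries. Cd79b, a chain of the B cell receptor, differed by 2.56 ± 0.54 (adjusted p = 0.0342; -3.32 aged, -0.75 MN1). Bst2, a surface protein of plasmacytoid dendritic cells that interferon induces, differed by 2.06 ± 0.36 (adjusted p = 0.0198; -1.51 aged, 0.56 MN1). Mrc1, the macrophage mannose receptor, differed by 2.04 ± 0.46 (adjusted p = 0.0423; -2.28 aged, -0.24 MN1). Hopx itself differed by 6.12 ± 0.96 (adjusted p = 0.0134; -8.94 aged, -2.84 MN1). In the alternative analyses, Eaf2, Cd79b, Bst2 and Mrc1 missed the threshold in 9, 8, 7 and 10 of 18, and Hopx in 1. Without MN1_WT replicates 2 and 4 the differences were 1.92 for Eaf2 (adjusted p = 0.231), 3.58 for Cd79b (adjusted p = 0.0462), 1.96 for Bst2 (adjusted p = 0.185), 2.47 for Mrc1 (adjusted p = 0.164) and 6.95 for Hopx (adjusted p = 0.0428).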

How the results depend on the processing

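In the aged comparison the 6 members that fell passed in every alternative. The count of all genes past the threshold was 818 in the fit of all 12 libraries and 2402 to 4599 when 1 library was left out, lowest without aged_WT replicate 7 (2402) or 6 (2560). Without TMM scaling the split of higher against lower calls moved from 1987 and 2021 to 1046 and 3381. In the MN1 knockout comparison the members called were 1 with DESeq2, 1 in the fit of all 12 libraries and 0 to 1 with a library left out, and the genes called were 565 with DESeq2, 6 with limma, 464 in the fit of all 12 libraries and 0 to 896 with a library left out, highest without MN1_WT replicate 3. For the difference of the effects, genes called were 1671 with DESeq2, 40 without MN1_WT replicates 2 and 4, and 53 to 3337 with 1 library left out. For MN1_WT against aged_WT, members called were 7 with DESeq2, 7 without MN1_WT replicates 2 and 4 and 1 to 3 with a library left out, and genes called were 1791, 2465 and 78 to 397. For MN1_KO against aged_KO, leaving out a library gave 1 to 5 members and 2515 to 7366 genes, and without TMM scaling the calls were 5350 higher and 1358 lower in place of 2936 and 2345. Signs changed only for log2 values that did not pass: in the aged comparison Xbp1 (0.00 with limma, -0.17 to 0.15 with a library left out), Fkbp11 (-0.21 to 0.52), Hspa5 (0.00 without TMM scaling), Derl1 (-0.08 to 0.01) and Derl2 (-0.11 to 0.04), and in the MN1 comparison Xbp1 (-0.04 to 0.28) and Fkbp11 (-0.13 to 0.74). For the difference, with a library left out, they were Irf4 (-0.66 to 0.15), Fkbp11 (-0.38 to 0.52), Xbp1 (-0.04 to 0.31), Derl3 (-0.28 to 0.71), Prdm1 (-0.07 to 0.75) and Tnfrsf17 (-0.02 to 0.74). Irf4 gave 0.10 without TMM scaling, 0.20 with limma and 1.72 without MN1_WT replicates 2 and 4, and Fkbp11 gave 0.23, 0.11 and 0.77. The cause was not tested. No paired analysis was possible because the groups compared share fewer than 2 replicate numbers. Tnfrsf17, with 13 counts over the MN1_KO libraries, was below the count filter of the MN1 comparison.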
